A study of Rattus norvegicus with 2 samples.

Results

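The 6 genes described here were grouped as superficial zone and lubricin genes of articular cartilage and chosen by symbol. They were Prg4, which encodes lubricin, its regulator Creb5, and Erg, Cilp, Cilp2 and Clu. All 6 had a row among the 17337 genes of the deposited table, and all 6 reached 30 reads in at least 1 library, the floor that 4375 genes passed. Acetabular cartilage had been dissected from 3-week-old Wistar rats. The DA-DDH (disarticulation model of developmental dysplasia of the hip) library held pooled RNA of 5 rats whose hind limbs were swaddled with hips adducted and extended and knees extended for the first 10 days of life and which then moved freely. The control library held pooled RNA of 4 rats that were never restrained. With 1 library per condition there was no replicate, so no difference below was tested, the spread between rats is unknown, and every interval covers counting error only.

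The superficial zone is the layer of articular cartilage that faces the joint space. Its flattened chondrocytes secrete lubricin, a mucin-like glycoprotein that coats the surface and lowers friction under boundary contact, and cells of the synovial lining secrete it too. In articular chondrocytes Creb5, a transcription factor of the CREB/ATF family that binds cAMP response elements, is required for high Prg4 expression. Erg, an ETS family transcription factor, marks developing articular chondrocytes and is also a standard gene of endothelium. Cilp (cartilage intermediate layer protein) and Cilp2 encode related glycoproteins of the cartilage matrix and are not taken here as markers of the surface. Clu encodes clusterin, an extracellular chaperone made by many cell types including surface chondrocytes.

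RefSeq start-site windows on build GRCr8 were found for 5 of the 6 genes, and Clu was the exception. The windows of Prg4 and Creb5 are shown because this pair joins the lubricant to its regulator. Each holds the 250 bases before the listed start, written 5′ to 3′ on the strand of the gene. Prg4 lies on the minus strand at chr13:65054226-65054475 and Creb5 on the plus strand at chr4:83723975-83724224. Capitals mark CCAAT on either strand, and TATATAA or TATAAA on the strand of the gene.
Prg4: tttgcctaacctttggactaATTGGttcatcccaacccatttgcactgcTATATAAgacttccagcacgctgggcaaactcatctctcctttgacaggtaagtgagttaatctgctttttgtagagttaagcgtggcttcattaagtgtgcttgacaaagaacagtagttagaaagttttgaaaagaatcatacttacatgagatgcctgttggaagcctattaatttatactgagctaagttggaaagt
Creb5: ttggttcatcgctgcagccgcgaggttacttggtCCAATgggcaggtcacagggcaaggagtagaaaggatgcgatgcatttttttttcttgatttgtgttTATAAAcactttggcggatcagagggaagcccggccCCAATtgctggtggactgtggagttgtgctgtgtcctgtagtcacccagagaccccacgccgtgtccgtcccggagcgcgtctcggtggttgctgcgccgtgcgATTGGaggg
Among the capitals, the CCAAT box matched 1 time in Prg4 and 3 times in Creb5 and was present in 34.0% of all 33469 windows of this length. The TATA-like motif of the Prg4 window, TATATAA, was present in 2.29% of windows and that of the Creb5 window, TATAAA, in 8.06%. The strings differ, so these shares are not set against each other. The motif begins 201 bases before the listed start in Prg4 and 149 bases before it in Creb5. The full cAMP response element (CRE) TGACGTCA, which is its own reverse complement, was in 1.59% of windows. Its 5-letter piece TGACG, counted on both strands and contained in every full match, was in 18.2%. The AP-1 motif TGANTCA, on both strands, was in 6.34% and the forkhead motif GTAAACA, on both strands, in 3.21%. None of these 4 motifs was in the window of any of the 5 genes. The SMAD motif CAGAC, on both strands, was in 42.9% of windows and occurred 2 times in Cilp, 1 time each in Cilp2 and Erg, and not in Prg4 or Creb5. RefSeq also places part of each gene upstream of the listed start, 539 bases in Prg4, 638 in Creb5, 752 in Cilp, 286 in Cilp2 and 118906 in Erg. Other starts therefore exist, and the window of Erg lies far inside its gene span. Absence of these letters says nothing of sites elsewhere.

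The DA-DDH library held 833869 reads over genes and the control library 796723, recovered from the deposited normalized values. Col2a1, the type II collagen gene of hyaline cartilage, took 11.4% of reads in the DA-DDH library (95% exact binomial interval 11.4 to 11.5) and 29.3% in the control library (29.2 to 29.4). Ratios were therefore scaled by TMM (trimmed mean of M values), which leaves out the most extreme genes, and are given as log2 of DA-DDH over control after adding 0.5 reads. Scaling by total reads would raise every log2 ratio by 0.43, and on that scale the median of the 4375 genes was 0.45 in place of 0.03. The label of the tissue was checked against 14 cartilage markers, of which 13 had a row and all 13 reached the floor. Sox9, the transcription factor that defines chondrocytes, had 348 reads in DA-DDH and 595 in control.

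Prg4 was lower in the DA-DDH library, and it was by far the most abundant of the 6 genes in both. On rn6 it spans positions 67672588 to 67688902 of chromosome 13 (minus strand), with 14 exons of 3680 bases in all. It had 2057 reads in the DA-DDH library and 5317 in the control library. Per length this was 670.3 RPKM (reads per kilobase of exon, scaled by the total reads of the library; 95% exact Poisson interval 642 to 699.9) in the DA-DDH library and 1813 RPKM (1765 to 1863) in the control library. On the TMM scale the log2 ratio was -1.86 (95% exact conditional binomial interval -1.94 to -1.79), or 3.63-fold lower. Scaled by total reads, as the RPKM values are, it was -1.44. Of all reads, lubricin took 0.247% in the DA-DDH library and 0.667% in the control library. Among the 4375 genes, 15 had a lower ratio than Prg4, and among the 57 genes with at least 1000 reads none had. In bulk tissue such as this, fewer cells of a type and less RNA per cell cannot be told apart. The exons of Prg4 share 195 bases (5.30% of their length) with exons of Tpr, a nuclear pore gene on the other strand. Tpr had 382 reads in the DA-DDH library and 253 in the control library (log2 ratio 0.10), far fewer than Prg4.

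**Figure D1:**
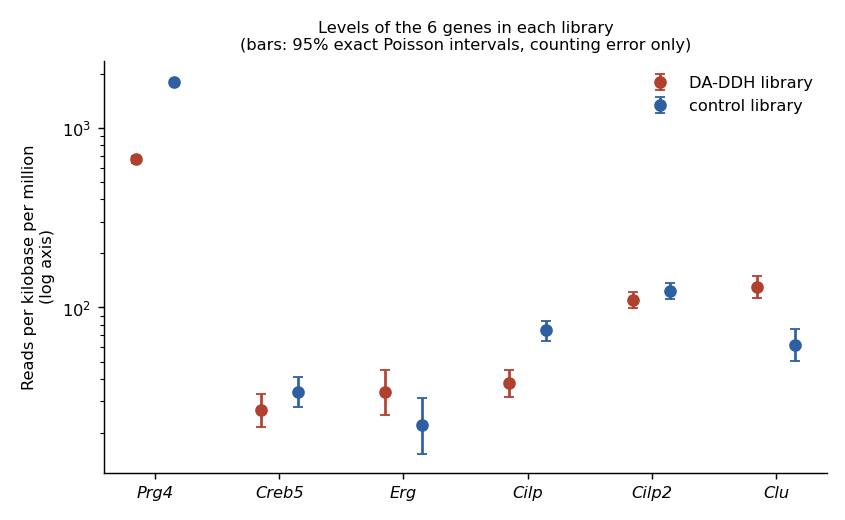
Level of each of the 6 genes in RPKM (vertical, log axis), with the DA-DDH library in red on the left of each pair and the control library in blue, and 95% exact Poisson intervals of the counts as bars. Prg4 stands above the other 5 genes in both libraries, at 670.3 RPKM in DA-DDH and 1813 RPKM in control, and Clu and Erg are the genes whose DA-DDH point is the higher.

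The other genes had far lower levels, and their order differed between the libraries. In the DA-DDH library Clu (131 RPKM) and Cilp2 (111 RPKM) followed Prg4, with overlapping intervals, and then came Cilp (37.7 RPKM), Erg (33.9 RPKM) and Creb5 (26.9 RPKM), each overlapping the next. In the control library the order after Prg4 was Cilp2 (124 RPKM), Cilp (74.5 RPKM), Clu (62.1 RPKM), Creb5 (33.9 RPKM) and Erg (22.3 RPKM). There the intervals of Cilp and Clu overlapped, as did those of Creb5 and Erg. Clu thus stood above Cilp in the DA-DDH library with intervals apart, whereas in the control library the pair was not separated beyond counting error. Lubricin made up 70.7% of the reads of the 6 genes in the DA-DDH library (95% exact binomial interval 69.0 to 72.3) and 85.7% in the control library (84.8 to 86.6).

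Prg4 and Cilp, 2 of the 6 genes, were lower in DA-DDH by more than 2-fold, against 3.06% of the 4375 genes at the floor of 30 reads. None was more than 2-fold higher, against 4.71% of those genes. Below 0 on the log2 scale were 4 of the 6, against 47.6% of the 4375 genes. The median log2 ratio of the 6 genes was -0.67, whereas that of all genes at the floor was 0.03. The summed reads of the 6 genes were 2911 in the DA-DDH library and 6201 in the control library, a log2 ratio of -1.58. Without Prg4 they were 854 and 884 reads in DA-DDH and control, a log2 ratio of -0.54 (interval -0.68 to -0.40). Prg4 was the 1 gene of the 6 with at least 1000 reads. Of the 57 genes at that floor 19.3% were lower by more than 2-fold, 5.26% were higher by more than 2-fold and 52.6% were below 0, so a ratio past 2-fold was less rare among genes read as deeply as Prg4.

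**Figure D2:**
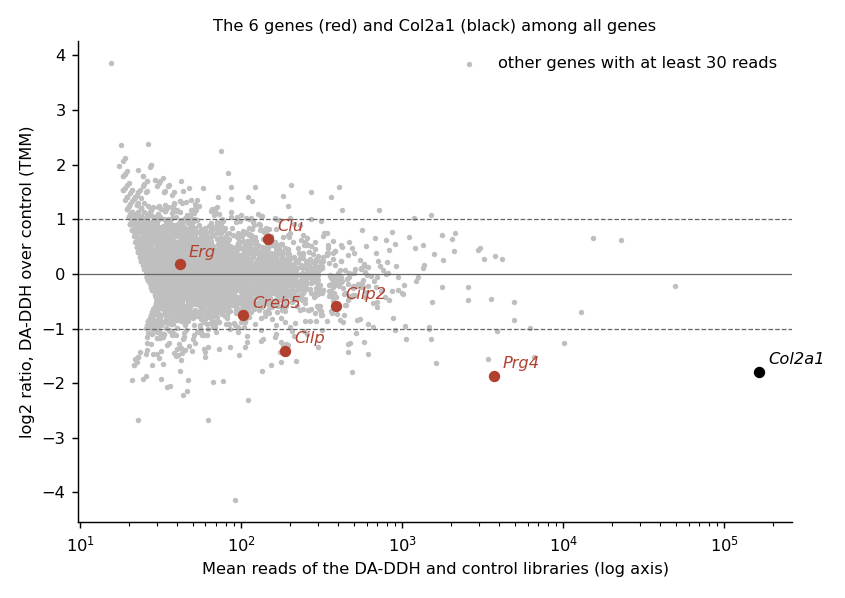
Log2 ratio of DA-DDH over control on the TMM scale (vertical) against the mean reads of both libraries (horizontal, log axis) for the 4375 genes with at least 30 reads, with the 6 genes in red, Col2a1 in black and dashed lines at 2-fold. Prg4 at -1.86 and Col2a1 at -1.79 lie at nearly the same height, the lowest of the genes with at least 1000 reads, although Col2a1 has far more reads and 15 genes with fewer reads lie below Prg4. Cilp lies below the 2-fold line, and Creb5, Cilp2, Erg and Clu lie within it.

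Lubricin and type II collagen were lower by nearly the same factor. Per 1000 reads of Col2a1 there were 21.6 reads of Prg4 in the DA-DDH library and 22.8 in the control library. This ratio of ratios, which does not depend on the scaling between libraries, was 0.949 (95% exact conditional interval 0.901 to 0.999), so that the 3.63-fold lower Prg4 stood beside a 3.45-fold lower Col2a1. Col2a1 was also the gene with a ratio nearest to that of Prg4 among the 57 genes with at least 1000 reads. The next nearest were the type IX collagen chains Col9a2 (log2 ratio -1.63) and Col9a1 (-1.56) and the type XI chains Col11a2 (-1.52) and Col11a1 (-1.27), all of the cartilage collagen fibril. With only 1 ratio per gene, nearness over these libraries is a description and carries no sign of shared control.

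Relative to Col11a2, Acan and the summed cartilage markers, lubricin was lower. Relative to Col11a2, which had 4347 reads in DA-DDH and 8861 in control, the log2 ratio of ratios of Prg4 was -0.34 (interval -0.43 to -0.25). Relative to Acan, which encodes the main proteoglycan aggrecan and had 5127 and 7254 reads in DA-DDH and control, it was -0.87 (-0.96 to -0.78). Relative to the summed reads of the 12 cartilage markers with a row other than Col2a1, it was -0.63 (-0.71 to -0.56). That sum includes Acan and Col11a2, so it is not a separate reference. Single genes of that sum differed among themselves. Comp, a cartilage matrix gene with 2590 reads in DA-DDH and 2554 in control, had the highest ratio of the 12, at -0.47. Matn1, which encodes the cartilage protein matrilin, was at -1.79 (interval -2.19 to -1.40) with 78 reads in DA-DDH and 192 in control, the same ratio as Col2a1, so a ratio close to that of Prg4 was not particular to Col2a1.

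**Figure D3:**
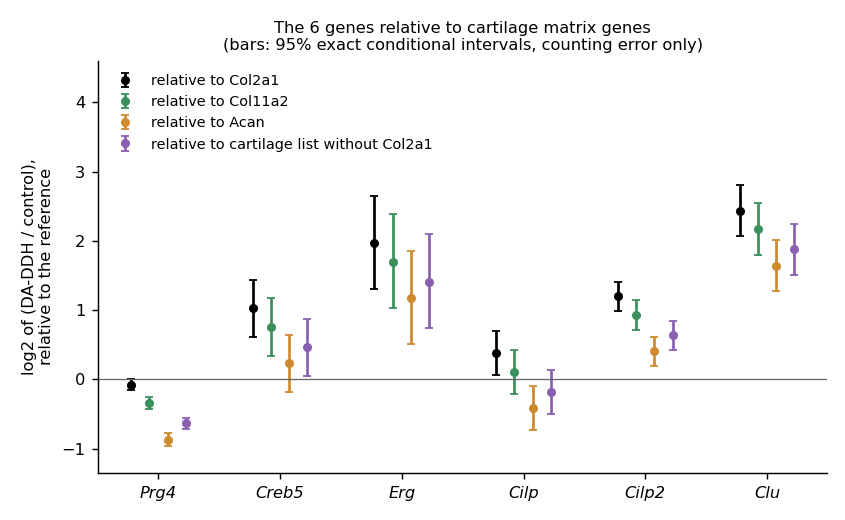
Log2 ratio of DA-DDH over control of each gene (horizontal) after division by the reads of a reference, with 95% exact conditional intervals. The references are Col2a1 (black), Col11a2 (green), Acan (orange) and the cartilage markers summed without Col2a1 (purple), which include Acan and Col11a2. Prg4 lies at -0.076 relative to Col2a1 and below 0 for the other references, and Cilp lies above 0 relative to Col2a1 and below 0 relative to Acan. Clu, Erg, Cilp2 and Creb5 lie above 0 for all 4 references, although the interval of Creb5 relative to Acan holds 0.

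Creb5, the regulator of lubricin, was lower in the DA-DDH library, by less than Prg4. Its span on rn6 is 83466495 to 83836351 of chromosome 4 (plus strand), and it had 93 reads in DA-DDH and 112 in control. The log2 ratio was -0.76 (interval -1.17 to -0.35), a 1.69-fold lower level, and 6.33% of the 4375 genes had a lower ratio. With total-count scaling it was -0.33 with an interval from -0.75 to 0.076, which holds 0, so the difference beyond counting error rests on the scaling. For each read of Creb5 there were 22.1 reads of Prg4 in the DA-DDH library and 47.5 in the control library, a log2 ratio of ratios of -1.10 (interval -1.52 to -0.68). Creb5 was thus higher relative to Col2a1 in the DA-DDH library, with 0.976 reads per 1000 of Col2a1 in DA-DDH and 0.479 in control. Relative to Acan the interval of its log2 ratio of ratios, -0.18 to 0.65, held 0.

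Erg showed no difference between the libraries that could be told from counting error. Its span on rn6 is 35646515 to 35749484 of chromosome 11 (minus strand), and it had 51 reads in DA-DDH and 32 in control, the fewest of the 6 genes in both libraries. Its log2 ratio was 0.17 with an interval from -0.49 to 0.87, which holds 0 and leaves either direction possible. Since Erg is also a gene of endothelium, it was set beside that cell type. All 9 endothelial markers at the floor lay above 0 (median log2 ratio 1.05), and the summed reads of all 11 were 1123 in DA-DDH and 366 in control. Per 100 endothelial reads there were 4.54 reads of Erg in the DA-DDH library and 8.74 in the control library. Relative to Col2a1, in contrast, Erg was higher in DA-DDH, at a log2 ratio of ratios of 1.97 (interval 1.30 to 2.65). The part of vessel cells in the reads of Erg was not tested.

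The Cilp pair differed in size of change. Cilp, at 70760922 to 70775891 of chromosome 8 (rn6, plus strand), had 130 reads in DA-DDH and 245 in control. Its log2 ratio was -1.40 (interval -1.72 to -1.09), a 2.65-fold lower level, and 1.19% of the 4375 genes had a lower ratio. Cilp2, at 21288876 to 21295869 of chromosome 16 (rn6, plus strand), had 377 reads in DA-DDH and 403 in control. Its log2 ratio was -0.59 (interval -0.79 to -0.38), a 1.50-fold lower level. With total-count scaling the interval of Cilp2 was -0.37 to 0.044 around -0.16 and held 0, whereas that of Cilp, -1.30 to -0.67, did not. For each read of Cilp2 there were 0.345 reads of Cilp in the DA-DDH library and 0.608 in the control library, a log2 ratio of ratios of -0.82 (-1.20 to -0.44). Both genes are read over exons of similar summed length, 4130 and 4081 bases in Cilp and Cilp2. Relative to Col2a1, Cilp was slightly higher in the DA-DDH library, at 0.38 (0.06 to 0.69), and Cilp2 clearly so, at 1.20 (0.99 to 1.40). Relative to Acan the sign for Cilp turned, to -0.41 (-0.74 to -0.10), whereas Cilp2 stayed above 0 at 0.40 (0.19 to 0.62).

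Clu was the 1 gene of the 6 that was higher in the DA-DDH library beyond counting error. Its span on rn6 is 42626612 to 42665848 of chromosome 15 (plus strand), and it had 203 reads in DA-DDH and 92 in control. The log2 ratio was 0.65 (interval 0.29 to 1.02), a 1.56-fold higher level, and 87.4% of the 4375 genes had a lower ratio, so many genes were at or above this size. For each read of Clu there were 10.1 reads of Prg4 in the DA-DDH library and 57.8 in the control library. That log2 ratio of ratios, -2.51 (-2.89 to -2.14), was the largest in size of the 15 pairs among the 6 genes. Relative to the summed reads of the fibroblast markers, nearly all from Col3a1, Clu was at 0.03 (-0.33 to 0.41). Relative to those of the synovial lining list, mostly from Thy1, it was at 0.16 (-0.29 to 0.61). Relative to those of the endothelial markers Clu was lower, at -0.48 (-0.88 to -0.06). With total-count scaling Clu was at 1.07 and past 2-fold.

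Across the 15 pairs, the interval of the ratio of ratios was clear of 0 for 13. The exceptions were Creb5 with Cilp2 (-0.17, interval -0.64 to 0.29) and Erg with Clu (-0.47, interval -1.24 to 0.32). The 15 intervals were not widened for their number. By ratio the genes ran from Prg4 and Cilp, the pair with the lowest ratios, through Creb5 and Cilp2 to Erg and Clu. Between the first pair, the log2 ratio of ratios of Prg4 to Cilp was -0.46 (-0.78 to -0.13).

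**Figure D4:**
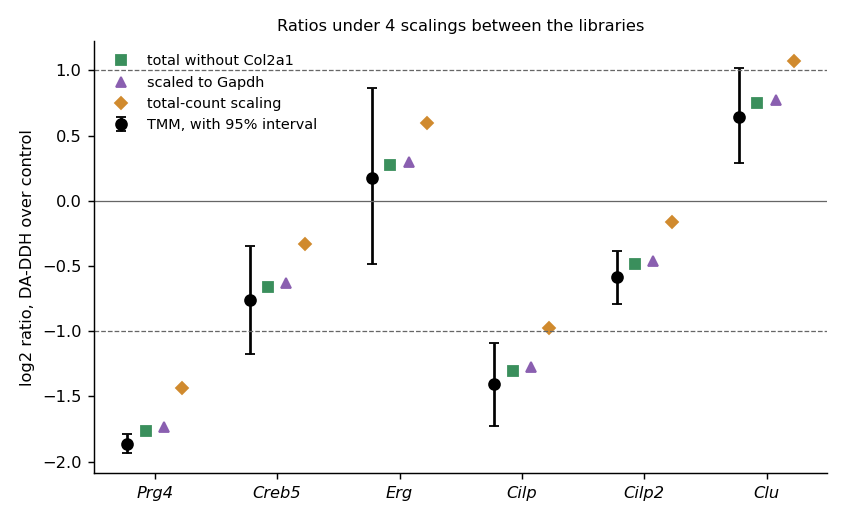
Log2 ratio of DA-DDH over control of each gene (horizontal) with TMM scaling and its 95% interval (black), total reads without Col2a1 (green), Gapdh (purple) or total reads (orange), with dashed lines at 2-fold. Each gene keeps its sign under all 4 scalings, Cilp comes just inside 2-fold with total reads at -0.98, and Clu passes it at 1.07.

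Few further genes of the surface zone were read deeply enough to set beside lubricin. Of the 9 genes listed for a wider surface zone, 6 had a row and 5 reached 30 reads, of which 4 lay above 0 and 1 below (median log2 ratio 0.44), against 47.6% of all 4375 genes below 0. A count of 5 genes places no share against that background. Tnc, which encodes tenascin C, had 2466 reads in DA-DDH and 1066 in control (0.72). Thbs4, a thrombospondin of tendon and joint tissue, had 1089 and 569 reads in DA-DDH and control (0.44), and Dkk3, a secreted glycoprotein, 459 and 234 (0.48). Dcn, which encodes the small proteoglycan decorin, was at 0.28. Wif1, a secreted Wnt inhibitor, was lower in DA-DDH, at -0.55 (interval -0.96 to -0.14) with 99 reads in DA-DDH and 103 in control. Total-count scaling would raise this ratio and its interval by 0.43, with the upper end past 0. The difference of Wif1 beyond counting error thus rests on the scaling, as that of Creb5 does. Tnc, Thbs4 and Dcn are expressed in fibrous tissue as well.

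Genes of signals that act on lubricin expression were spread around 0 much as all genes were. Of 28 genes listed for these signals, 22 reached 30 reads, 11 of them below 0 and 11 above, and the median log2 ratio was 0.03. Among all 4375 genes 47.6% were below 0 and the median was 0.03 as well. None of the 22 was past 2-fold, against 3.06% of all genes lower and 4.71% higher, and nothing is called particular to these signals. The list held TGF-β ligands, receptors and Smads, FoxO factors, CREB family members and the EGF receptor, YAP and NFAT genes. Jun, an AP-1 subunit that can pair with Creb5, was furthest from 0 among the 22 at the floor. It was at -0.89 (interval -1.19 to -0.59) with 161 reads in DA-DDH and 212 in control. Gnas, which encodes the G protein subunit that stimulates cAMP synthesis, was at -0.21 (669 and 552 reads), and Ctnnb1, β-catenin, at -0.41 (295 and 278 reads). Crebbp, the coactivator of CREB, was at 0.08 (306 and 206 reads). Foxo1 and Foxo3 were at 0.26 and -0.010, and the interval of each held 0, as did those of Tgfbr1 (-0.012 to 1.08) and Tgfbr2 (-0.14 to 0.51). Creb1 had only 12 reads in DA-DDH and 11 in control, too few to place. Crem, a CREB family member also below the floor, had 14 reads in DA-DDH and 22 in control (-1.13, interval -2.22 to -0.11). Total-count scaling would raise these ratios and intervals by 0.43. The ratio of Gnas would then lie above 0, and the upper ends of the intervals of Ctnnb1 and Crem would pass 0.

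Partners of lubricin at the surface and relatives of the 6 genes were mostly read too thinly. Of 9 lubrication partners, 8 had a row and 2 reached 30 reads, both above 0. Cd44, the hyaluronan receptor that also binds lubricin, had 337 reads in DA-DDH and 129 in control, a log2 ratio of 0.89 (interval 0.60 to 1.20). Has2, a hyaluronan synthase, had 33 and 17 reads in DA-DDH and control (0.44, interval -0.42 to 1.40). Of 4 close relatives, Atf2 (0.39) and Atf7 (-0.10), of the family of Creb5, and Fli1 (0.40), an ETS factor close to Erg and likewise of endothelium, reached the floor, and the interval of each held 0. Vtn, which shares domains with Prg4, had 2 reads in DA-DDH and 1 in control.

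**Figure D5:**
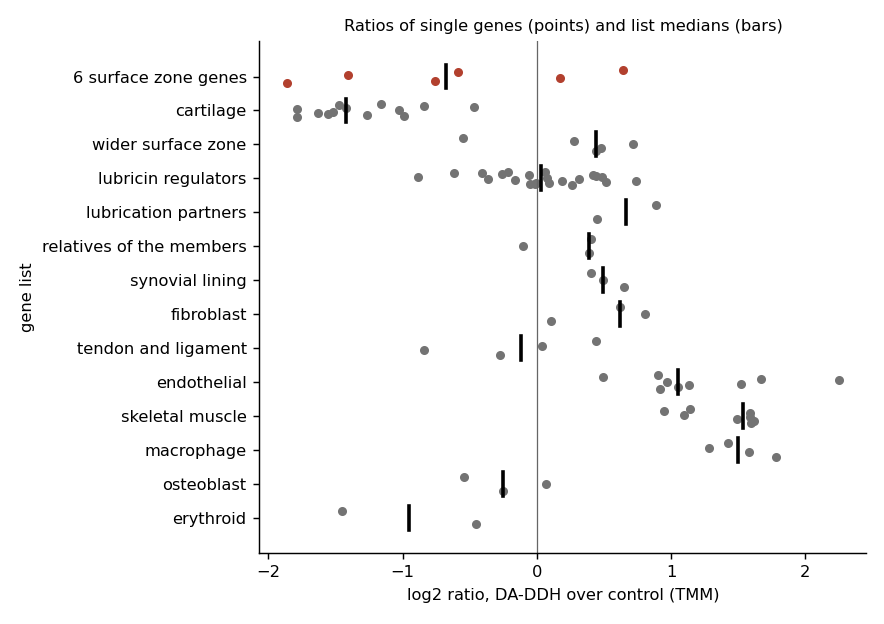
Log2 ratio of DA-DDH over control on the TMM scale (horizontal) of each gene with at least 30 reads (points) and the median of its list (bars). The 6 genes described here are in red in the top row, labelled as surface zone genes, with the 13 lists below. The 6 genes span from -1.86 to 0.65, the cartilage markers all lie below 0, and the endothelial, skeletal muscle and macrophage markers all lie above it.

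Markers of other cell types differed between the libraries beside these genes. Synovial lining cells are the other source of lubricin in the joint. Of the 6 genes listed for synovial lining, Thy1, Cd55 and Pdpn reached the floor and lay above 0 (median log2 ratio 0.49). The 6 summed to 381 reads in DA-DDH and 193 in control, of which Thy1 gave 218 and 110. Thy1 is not particular to lining cells, and the interval of Pdpn (-0.23 to 1.08) held 0. The cells that gave these reads were not told apart, so the sum is no measure of lining cells. Below the floor, Clic5 was at -0.13 (interval -1.10 to 0.88) with 22 reads in DA-DDH and 17 in control, and Has1 and Vcam1 had at most 8 reads. The summed reads of this list, mostly from Thy1, were higher while Prg4 was lower. For each read of the list there were 5.40 reads of Prg4 in the DA-DDH library and 27.5 in the control library. All 13 cartilage markers were below 0, with a median of -1.42 and 113035 summed reads in DA-DDH and 263283 in control. All 8 skeletal muscle markers lay above 0 (median 1.54), as did the 4 macrophage markers at the floor (median 1.50) and the 3 fibroblast markers at the floor (median 0.62). The summed reads of these lists in DA-DDH and control were 2108 and 540 for muscle, 580 and 160 for macrophages, and 31649 and 14679 for fibroblasts, of which Col3a1 gave 31102 and 14384. Tendon and ligament markers had a median of -0.12 (5702 and 6331 reads), osteoblast markers of -0.25 (737 and 641) and erythroid markers of -0.95 (131 and 152). Fmod gave 4347 and 5547 of the tendon and ligament reads, and the log2 ratio of that sum was -0.64. Thbs4 was in that list and in the wider surface zone list. The part of these tissues in the ratios of the 6 genes was not tested.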

How the data were processed

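RNA-seq of acetabular cartilage was analysed for 2 libraries, 1 per condition. The genome build was rn6, and TopHat and Cufflinks are the tools listed in the submitters' processing notes. The tool that counted reads and its use of strand are not given in the sources used here. The labels name a SMARTer Stranded total RNA kit, whereas the methods name a TruSeq Stranded mRNA kit. The authors deposited 1 normalized signal per gene and library, which is a read count times 1 factor. All values (100% in each library, relative tolerance 1e-06) were whole multiples of 0.855 in DA-DDH and 1.20 in control, and reads were recovered by division. The deposited table also gives summed exon lengths in other units (bases) and columns of the authors' fold changes, p-values, q-values, ranks and calls, which were not used. A date or number stands for the symbol in 26 rows (0.157% of reads), kept in the totals.

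TMM factors (edgeR 4.0.16, R 4.3.3) were 1.16 in DA-DDH and 0.863 in control. The quasi-likelihood test of edgeR could not be fitted, since 1 library per group leaves no residual degrees of freedom, so it calls no genes and no p-value is given. Ratios used a prior of 0.5 reads and counts of genes a floor of 30 reads in the library with more. Intervals are exact at 95% (conditional binomial, conditional odds ratio, Poisson or Clopper-Pearson) from scipy 1.17.1. Calculations were tested on simulated data. Other scalings, priors, floors and reference genes were tried.

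The 6 genes and the 13 lists were chosen with earlier results of these data known. Genes named are the 6, their reference genes, the 5 nearest to Prg4 with at least 1000 reads, and up to 4 members per list with most reads. Wif1, Matn1, Comp, Foxo1, Foxo3, Tgfbr1, Tgfbr2, Creb1, Crem, Sox9, Has1 and Vcam1 were named after their values were seen. Older symbols were matched through RefSeq names (GRCr8), from which no rn6 coordinate was taken. Python 3.11.15, numpy 2.4.6, pandas 2.3.3 and matplotlib 3.10.9 were used.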

Additional observations from a re-analysis of the deposited data

How the results depend on the processing

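No paired analysis was possible because each condition had 1 library. The signs of all 6 log2 ratios of DA-DDH over control were kept under the 6 other scalings and 2 other priors. With total-count scaling Prg4 was at -1.44, Creb5 at -0.33, Cilp at -0.98, Cilp2 at -0.16 and Clu at 1.07, so 1 gene was more than 2-fold lower and 1 more than 2-fold higher, against 1.07% and 14.6% of all genes at the floor. On that scale the intervals of Creb5 (-0.75 to 0.076) and Cilp2 (-0.37 to 0.044) held 0, which they did under no other scaling. Prg4 was at -1.76 with total reads without Col2a1 and at -1.74 with scaling to Gapdh. Upper-quartile and median-of-ratios scaling and the values as deposited shifted every log2 ratio by 0.00012, -0.0028 and -0.0026. Among genes with at least 10 reads 5.40% were past 2-fold lower and 8.72% past 2-fold higher, among those with at least 100 reads 2.82% were past 2-fold higher, and among those with at least 1000 reads 19.3% were past 2-fold lower, with 1 of the 6 genes (Prg4) counted.

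Relative to Acan in place of Col2a1 the log2 ratios were -0.87 for Prg4, 0.23 for Creb5, 1.17 for Erg, -0.41 for Cilp, 0.40 for Cilp2 and 1.64 for Clu. Relative to Col11a2 they were -0.34 for Prg4 and 0.93 for Cilp2. Relative to the cartilage markers summed without Col2a1 they were -0.63 for Prg4, 0.47 for Creb5, -0.18 for Cilp, 0.64 for Cilp2 and 1.88 for Clu. Cilp thus turned its sign with the reference. The median of the lubricin regulators turned to -0.032 with a floor of 10 and -0.14 with a floor of 100, that of tendon markers to 0.31 with total-count scaling and 0.0095 with Gapdh, and that of osteoblast markers to 0.17 with total-count scaling. The shifts with reference or scaling follow from their construction, and those with the floor from the genes it adds or drops. Fewer than 100 reads in 1 or both libraries limit Creb5, Erg and Clu.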
